A study of Mus musculus with 6 samples.

Results

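Hepatic expression of 10 genes of endotoxin sensing and of myeloid cells was followed in mice that drank alcohol for 1, 2 or 4 months. The genes were Cd14, Tlr4 and Lbp, whose products recognise bacterial endotoxin, the cytokine genes Tnf, Il1b and Il6, and S100a8, S100a9, Cd68 and Marco, which are used as markers of neutrophils and macrophages. They were chosen by name, and every probe that carried 1 of these names on all 6 arrays was taken, which gave 11 probes (2 for Tlr4 and 1 for each other gene) of the 41174 probes and 27962 gene or transcript names on the array. Wild-type male mice of the 129/Sv strain, 6 to 8 weeks old at the start, were first kept on the control liquid diet and then received the Lieber-DeCarli liquid diet with 4% ethanol ad libitum, or an isocaloric liquid diet with maltose dextran in place of the ethanol. At each month the liver RNA of 6 alcohol-fed mice was combined into 1 pool and that of 6 control mice into another. Both pools were hybridised together on 2 dual-colour oligonucleotide arrays, with the alcohol pool in the red dye Cy5 on the first and in the green dye Cy3 on the second. There were thus 6 pools on 6 arrays, and the 2 arrays of a month repeat the same RNA, so that no spread between mice and no test within a month could be had.

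Endotoxin, the lipopolysaccharide of the outer wall of Gram-negative bacteria, reaches the liver from the gut through the portal vein. The plasma protein made from Lbp, which hepatocytes secrete as part of the acute-phase response, lifts single endotoxin molecules out of aggregates and hands them to CD14 on the surface of monocytes and macrophages. CD14 passes them to TLR4 and its partner MD-2, the product of Ly96. The receptor then signals through MyD88 and other adaptors to NF-kB, which turns on Tnf, Il1b, Il6 and many chemokine genes. In the liver the resident macrophages, the Kupffer cells, are the main cells that take up endotoxin, and this route has been studied at length in alcoholic liver injury.

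Of the 10 genes, 8 had a measurable signal at every month, and none of these differed by 2-fold or more between the alcohol and control pools. The pools are RNA of whole liver, so a change in the number of cells of a type and a change in RNA per cell cannot be told apart. Lbp had the highest mean ratio over the 3 months of the 10 genes and lay above control on 6 of 6 arrays, with averaged log2 ratios of 0.24, 0.47 and 0.80 after 1, 2 and 4 months. Marco had a log2 ratio of 0.61 after 2 months. The cytokine genes Tnf and Il1b lay between -0.18 and 0.03, and Il6 and S100a8 were mostly too dim to give a ratio. No probe of the array passed the limma test across the 3 months, so the values are given as measured differences between pools.

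**Figure D1:**
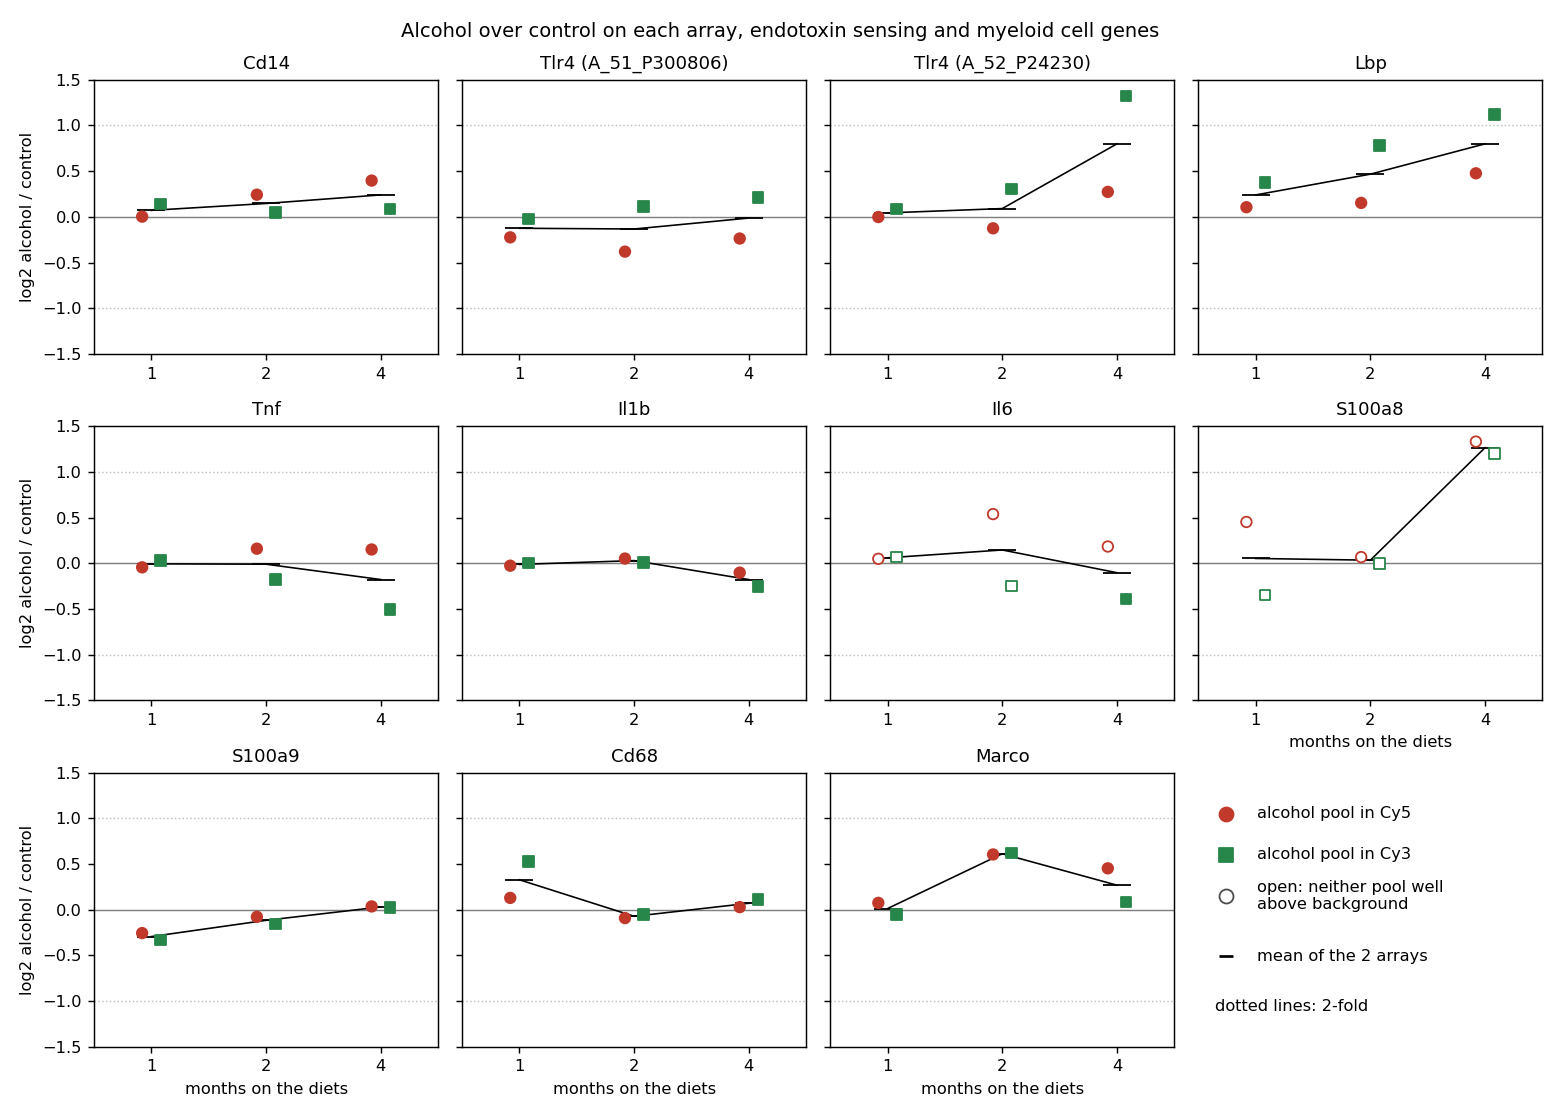
Log2 ratio of alcohol over control (vertical axis) after 1, 2 and 4 months on the diets (horizontal axis) for each of the 11 probes. Red circles are arrays with the alcohol pool in Cy5, green squares arrays with it in Cy3, open symbols arrays on which neither pool was well above background, and the black line joins the means of the 2 arrays. Lbp lies above 0 on all 6 arrays and S100a8 has open symbols only.

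A measurable signal here means that at least 1 of the pools was well above background on both arrays of the month, as the scanner software marked it, and a gene counted as raised or lowered when the mean of the 2 log2 ratios reached 1 in size. By this rule 0.158% of 29799 measured probes were raised and 0.0973% lowered after 1 month, 0.162% of 33241 raised and 0.111% lowered after 2 months, and 0.352% of 34139 raised and 0.275% lowered after 4 months. With such small shares, a count of 0 among 8 genes is what the background share gives. The limma fit of the mean of the 3 monthly ratios called 0% of 37922 probes at an adjusted p under 0.05, the smallest adjusted p being 0.106, while 7.98% had an unadjusted p under 0.05. The limma fit of a slope over the months also called 0%, with a smallest adjusted p of 0.616 and 7.42% of probes at an unadjusted p under 0.05. The technical spread was wider later in the study, since the median SD of the 2 arrays over measured probes was 0.128 after 1 month, 0.249 after 2 months and 0.297 after 4 months on the log2 scale.

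Lbp, the gene of the endotoxin carrier of plasma, had log2 ratios of 0.11 and 0.37 on the Cy5 and Cy3 arrays after 1 month. The 2-month arrays gave 0.15 and 0.78 and the 4-month arrays 0.48 and 1.12. All 6 values lay above 0, and within each dye orientation every later month was higher than the one before. Among the 27898 probes with both pools clearly above background on each of the 6 arrays, 1.61% lay above 0 on all 6 arrays, and 0.179% did so with each later month higher in both orientations, a criterion set after the values of Lbp had been seen. The averaged ratios corresponded to 1.18-fold, 1.38-fold and 1.74-fold, with an SD of the 2 arrays of 0.19, 0.44 and 0.46 on the log2 scale, and they stood at percentiles 95.2, 98.5 and 99.4 of all measured probes. Averaged over the 3 months, the ratio was 0.50 on the log2 scale (SE 0.12, 95% interval 0.19 to 0.81), or 1.42-fold, with an unadjusted p of 0.0093 and an adjusted p of 0.62 by limma. The slope was 0.28 log2 units per doubling of the time on the diet (SE 0.080), with an unadjusted p of 0.024 and an adjusted p of 0.64 by limma. The Cy3 arrays gave the larger ratio at each month, so the mean over the 3 months was 0.24 from the Cy5 arrays alone and 0.76 from the Cy3 arrays alone.

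Cd14, the gene of the co-receptor that takes endotoxin from the carrier, lay above control by a small amount. Its log2 ratios were 0.0021 and 0.14 after 1 month, 0.24 and 0.05 after 2 months, and 0.40 and 0.08 after 4 months, in the order Cy5 and Cy3. All 6 lay above 0, as for Lbp and for 1.61% of the probes clearly above background on each array. The averages of 0.07, 0.15 and 0.24 amounted to 1.05-fold, 1.11-fold and 1.18-fold, at percentiles 72.2, 83.1 and 89.6 of all measured probes. Over the 3 months the mean was 0.15 on the log2 scale (95% interval -0.02 to 0.32, unadjusted p = 0.070, adjusted p = 0.62 by limma), an interval that leaves out a 2-fold change in either direction.

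The 2 probes of Tlr4, the signalling receptor of endotoxin, did not give the same picture. The brighter probe, A_51_P300806, which is printed in 10 spots on each array, had log2 ratios of -0.22 and -0.03 after 1 month, -0.38 and 0.11 after 2 months, and -0.24 and 0.21 after 4 months. The sign followed the dye at the later months, below 0 with alcohol in Cy5 and above 0 with alcohol in Cy3, and the averages were -0.13, -0.13 and -0.01. The other probe, A_52_P24230, had -0.0020 and 0.09 after 1 month, -0.13 and 0.31 after 2 months, and 0.27 and 1.32 after 4 months. Its 4-month average of 0.80 (SD 0.74) rested on the Cy3 array, where its alcohol signal was 531 intensity units against 77 on the Cy5 array, and its control signal was not well above background on the Cy5 array. The mean over the 3 months was -0.09 for the first probe (95% interval -0.25 to 0.07, adjusted p = 0.72) and 0.31 for the second (95% interval -0.13 to 0.75, adjusted p = 0.67), both by limma.

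The partners of the receptor showed no called difference. Ly96, which encodes MD-2, lay below control on 5 of 6 arrays, with averages of -0.24, -0.31 and -0.03 and a mean over the 3 months of -0.19 (95% interval -0.40 to 0.01, adjusted p = 0.62 by limma). Myd88, the adaptor, had averages of 0.19, -0.18 and -0.05. Of 42 genes of Toll-like receptor signalling other than Tlr4 and Cd14, 37 were measurable after 1 month and 42 after 2 and 4 months. One gene, Ikbkg, which encodes the regulatory subunit of the IkB kinase, was raised after 2 months, with log2 ratios of 1.39 and 0.97 that average 1.18, or 2.26-fold (SD 0.30). Its averages after 1 and 4 months were 0.02 and -0.01, and its 3 other probes had 2-month averages of 0.79, 0.50 and 0.01. No gene of this group was lowered, its medians lay between -0.02 and 0.01 against -0.01 to 0.01 over all measured probes, and the limma fits called 0 of its 42 genes for the mean and 0 for the slope.

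Tnf encodes the cytokine that macrophages release early after contact with endotoxin. Its log2 ratios were -0.04 and 0.03 after 1 month, 0.16 and -0.18 after 2 months, and 0.15 and -0.51 after 4 months, in the order Cy5 and Cy3. After 2 and 4 months the sign again followed the dye, and the averages were -0.0061, -0.01 and -0.18 (SD 0.05, 0.24 and 0.47). The probe is printed in 10 spots, and the SD of the log2 ratio over the spots of 1 array was 0.0965 to 0.143, so that the gap between the dye orientations after 4 months was wider than the spread between spots. Il1b, the gene of another fever-inducing cytokine, was steadier. It had -0.03 and 0.0010 after 1 month, 0.05 and 0.0065 after 2 months, and -0.10 and -0.25 after 4 months, with averages of -0.01, 0.03 and -0.18. The 95% interval of the mean over the 3 months ran from -0.24 to 0.11 for Tnf and from -0.24 to 0.13 for Il1b, with adjusted p of 0.81 and 0.85 by limma. Both intervals lay well within 2-fold.

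Il6 was at the limit of detection. Neither pool was well above background on 5 of the 6 arrays, and both were on the Cy3 array after 4 months, where the log2 ratio was -0.39. The other ratios were 0.05 and 0.07 after 1 month, 0.54 and -0.25 after 2 months and 0.18 on the remaining array after 4 months. Its signals ran from 19.6 to 43.96 intensity units, and the SD over its 10 spots reached 0.466, so that no ratio was called. The promoters of the members are shown for the 2 that hold a match to an NF-kB type motif, since NF-kB is the factor by which endotoxin sensing reaches the cytokine genes. No promoter was at hand for Cd14, Tlr4 or Lbp, so these genes were not scanned. For the other 7 of the 10 members there were RefSeq promoters on the GRCm38.p6 build, from 250 bases before to 50 after the start of the gene. The letters GGGNNTTTCC, with N for any base and on either strand, were found in those of Il6 (chr5:30012864-30013163, plus strand, first base 44 before the start) and Marco (chr1:120504975-120505274, minus strand, first base 30 before the start), with the match in capitals and both sequences written along the gene:

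Il6: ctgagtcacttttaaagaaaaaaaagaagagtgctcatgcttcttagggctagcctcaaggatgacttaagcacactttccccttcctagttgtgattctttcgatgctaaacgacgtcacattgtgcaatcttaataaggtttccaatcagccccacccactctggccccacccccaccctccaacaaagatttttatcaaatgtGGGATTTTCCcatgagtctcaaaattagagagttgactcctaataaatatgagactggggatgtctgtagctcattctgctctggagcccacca

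Marco: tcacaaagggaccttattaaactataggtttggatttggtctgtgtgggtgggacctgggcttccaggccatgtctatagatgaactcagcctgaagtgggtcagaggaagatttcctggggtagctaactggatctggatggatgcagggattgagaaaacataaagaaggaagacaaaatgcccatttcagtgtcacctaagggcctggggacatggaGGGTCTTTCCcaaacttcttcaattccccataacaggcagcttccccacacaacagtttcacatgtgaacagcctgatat

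The same letters occurred in 1.63% of 32851 promoters of this length in the table. The match describes the sequence and says nothing of binding in these livers. The promoters of Tnf, Il1b, S100a8, S100a9 and Cd68 lacked these exact letters, and other forms of the motif were not looked for. In the arrays the pair stood apart in signal, since Marco was well above background in every pool and Il6 was at the limit.

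Among 35 further NF-kB target cytokines and cytokine receptors, 25 were measurable after 1 month and 29 at each later month, and none was raised or lowered 2-fold at any month. Their medians of 0.01, 0.01 and 0.05 stood beside -0.0025, 0.01 and -0.01 over all measured probes. The limma fits called 0 of the 34 genes tested, with 4 at an unadjusted p under 0.05 for the mean (3 higher and 1 lower) and 3 for the slope. Over all probes tested by limma, 7.98% had such a p for the mean and 7.42% for the slope.

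S100a8 and S100a9 encode the calprotectin subunits, which are abundant in neutrophils and are shed at sites of inflammation. On no array did S100a8 rise well above background in either pool. Its signals were 37.4 and 29.1 intensity units in the alcohol pool and 14.9 and 12.7 in the control pool after 4 months, and 9.17 to 27.5 in all pools at the earlier months. The ratios of these dim signals were 0.45 and -0.35 after 1 month, 0.07 and 0 after 2 months, and 1.33 and 1.20 after 4 months. They are listed without a fold change and entered no test, because both pools stood at background, and the software had put a surrogate in place of the control signal on the Cy5 array after 4 months. S100a8 is also on the study's own list of progressively induced genes, which was drawn from these arrays and is therefore no independent evidence. S100a9 was well above background in every pool, with log2 ratios of -0.26 and -0.33 after 1 month, -0.08 and -0.15 after 2 months, and 0.04 and 0.02 after 4 months. The 2 arrays of a month differed little, with an SD of 0.01 to 0.05, and the averages of -0.29, -0.12 and 0.03 moved from below control to control. They stood at percentiles 2.89, 22.3 and 61.7 of all measured probes. Over the 3 months its mean was -0.13 (95% interval -0.34 to 0.09, adjusted p = 0.71) and the slope 0.16 per doubling of the time (adjusted p = 0.77), both by limma. Without the 1-month pools the mean of S100a9 was -0.043, and without the 4-month pools it was -0.21.

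Of 21 further neutrophil markers with a probe, all were well above background in every pool. Lcn2, which encodes lipocalin, a protein of neutrophil granules that hepatocytes also make in the acute-phase response, was the only one that passed 2-fold. Its log2 ratios were 0.13 and 0.59 after 1 month, 0.95 and 1.62 after 2 months, and 0.71 and 1.38 after 4 months. All 6 were above 0, and the averages of 0.36, 1.28 and 1.04 corresponded to 1.28-fold, 2.44-fold and 2.06-fold. Its mean over the 3 months was 0.90 (95% interval 0.41 to 1.38, unadjusted p = 0.0055, adjusted p = 0.62 by limma). Ngp, a protein of neutrophil secondary granules, had averages of -0.14, 0.13 and 0.07, and the medians of the whole marker list were 0.01, 0.08 and 0.04. The summed level of the list, on the log2 scale after the 75th percentile of each channel was subtracted, was 4.94, 4.97 and 5.26 in the alcohol pools and 4.91, 4.86 and 5.26 in the control pools.

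Marco, a scavenger receptor by which macrophages bind bacteria, had log2 ratios of 0.07 and -0.05 after 1 month. After 2 months they were 0.60 and 0.62, and after 4 months 0.45 and 0.08. The 2-month arrays lay within 0.01 (SD) of each other, and their average of 0.61, or 1.53-fold, stood at percentile 99.4 of all measured probes, against percentiles 54.8 after 1 month and 91.2 after 4 months. The mean over the 3 months was 0.30 (95% interval -0.03 to 0.63, unadjusted p = 0.067, adjusted p = 0.62 by limma). Without the 2-month pools the mean was 0.14, with an adjusted p of 0.93 by limma.

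Cd68, a lysosomal glycoprotein of macrophages, stood out after 1 month, with log2 ratios of 0.13 and 0.53 and an average of 0.33, or 1.25-fold, at percentile 98.0. It had -0.09 and -0.05 after 2 months and 0.03 and 0.11 after 4 months. The mean over the 3 months was 0.11 (95% interval -0.14 to 0.36, adjusted p = 0.77 by limma), and without the 1-month pools it was -0.0011.

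**Figure D2:**
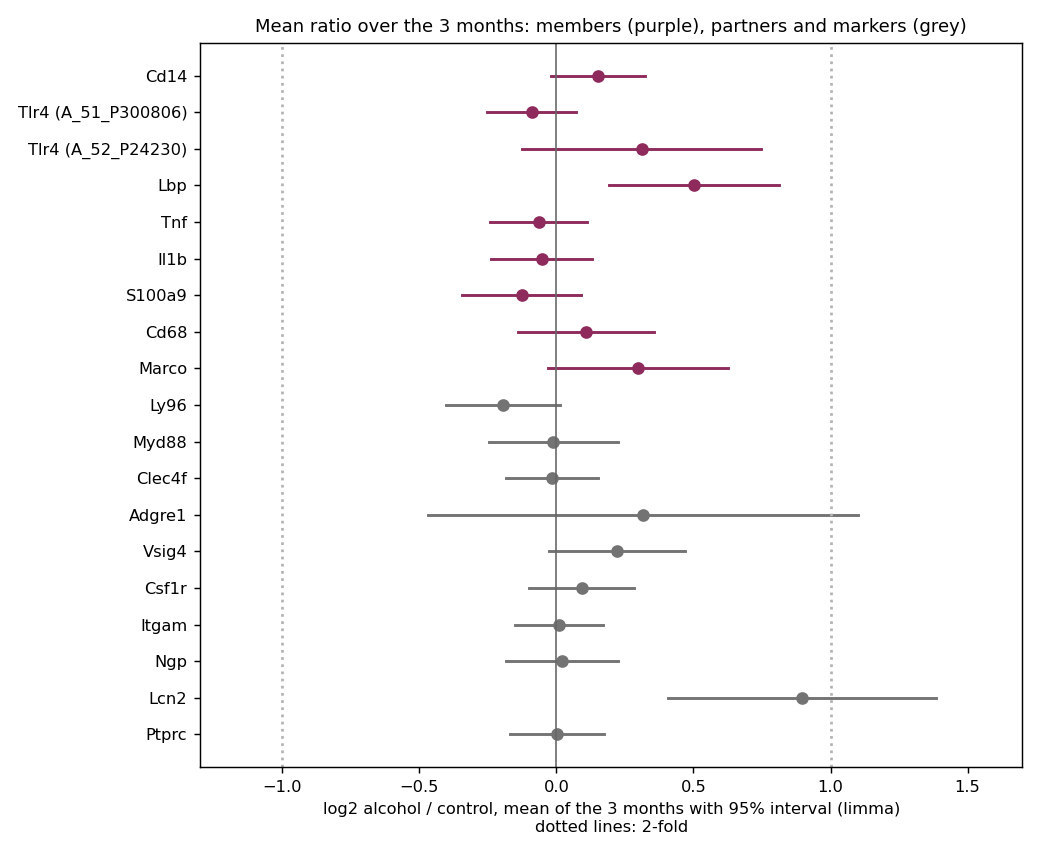
Mean log2 ratio of alcohol over control over the 3 months (horizontal axis, point) with its 95% interval from limma (line) for the 9 measurable member probes in purple and 10 partner and marker genes in grey. Dotted lines mark 2-fold, and all 9 member intervals lie inside them, while Il6 and S100a8 are not drawn because their signals stood at background.

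The other markers of Kupffer cells and macrophages were compared with Cd68, Marco and Cd14. All 31 were measurable at each month. After 1 month 24 of the 31 lay above 0 with a median of 0.10, against 14642 of 29799 probes and a median of -0.0025 overall. After 2 and 4 months 15 and 16 of the 31 lay above 0, with medians of -0.0015 and 0.0067. Adgre1, listed as Emr1, encodes the best known surface antigen of mouse macrophages and was the 1 gene of the list past 2-fold, after 1 month only, with 0.71 and 1.76 on the 2 arrays and an average of 1.23 (SD 0.74). Its other probe had 0.31 at that month, and the probes averaged -0.20 and -0.19 after 2 months. Clec4f, a lectin found on Kupffer cells, had averages of 0.05, -0.10 and -0.0030, and Vsig4, their complement receptor, had 0.26, 0.0014 and 0.40. Csf1r, the receptor for the macrophage growth factor, had 0.23, 0.01 and 0.04, with 0.02 and 0.43 by its other probes after 1 month. Itgam, an integrin of monocytes and neutrophils, had -0.02, -0.03 and 0.08. Limma called 0 of the 31 for the mean or the slope. The summed level of the list was 5.93, 6.16 and 6.28 in the alcohol pools and 5.80, 6.19 and 6.30 in the control pools, on the same scale as above.

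Hepatocytes, the main source of Lbp, were followed by 9 markers with a probe, all well above background in every pool. Their medians were 0.18, -0.09 and 0.02 after 1, 2 and 4 months, and none passed 2-fold. The median took opposite signs on the 2 arrays of each month, for example 0.31 with alcohol in Cy5 and -0.16 with alcohol in Cy3 after 1 month. Their summed level was 8.11, 8.09 and 7.24 in the alcohol pools and 8.09, 8.05 and 7.07 in the control pools, so that it was lower after 4 months, when the ratio of Lbp was highest, in both diets. Other cell types moved with the months too. After 1 month, when Cd68 and Adgre1 were highest, all 8 endothelial markers lay above 0 with a median of 0.36, and the red cell gene Hba-a1 had 1.51. Alas2, of haem synthesis in red cell precursors, had 0.05 at that month. After 4 months these blood markers lay on opposite sides of 0, Alas2 at -2.003 and Hba-a1 at 0.61 (0.30 by its other probe). After 4 months, when Lbp was highest, the median of 12 pancreas acinar markers was 0.55. Of these, 3 (Cela2a, Pnliprp1 and Cpb1) were raised past 2-fold, against 0.352% of all measured probes. Pnliprp1 and Cpb1 are also on the study's own list of progressively induced genes, which was drawn from these arrays. The summed level of the 12 markers was 4.98 in the alcohol pool and 4.60 in the control pool at that month. The part of these cell types in the ratios of the members was not tested. Ptprc, which marks all white blood cells, had averages of -0.10, 0.04 and 0.07. The other probes of Ptprc did not keep to one side of 0, at 0.25 and -0.21 for the 2 that were measurable after 2 months, and at -0.17, -0.04 and -0.17 after 4 months. The 12 lymphocyte markers had medians of -0.0010, 0.02 and -0.02 with none past 2-fold.

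**Figure D3:**
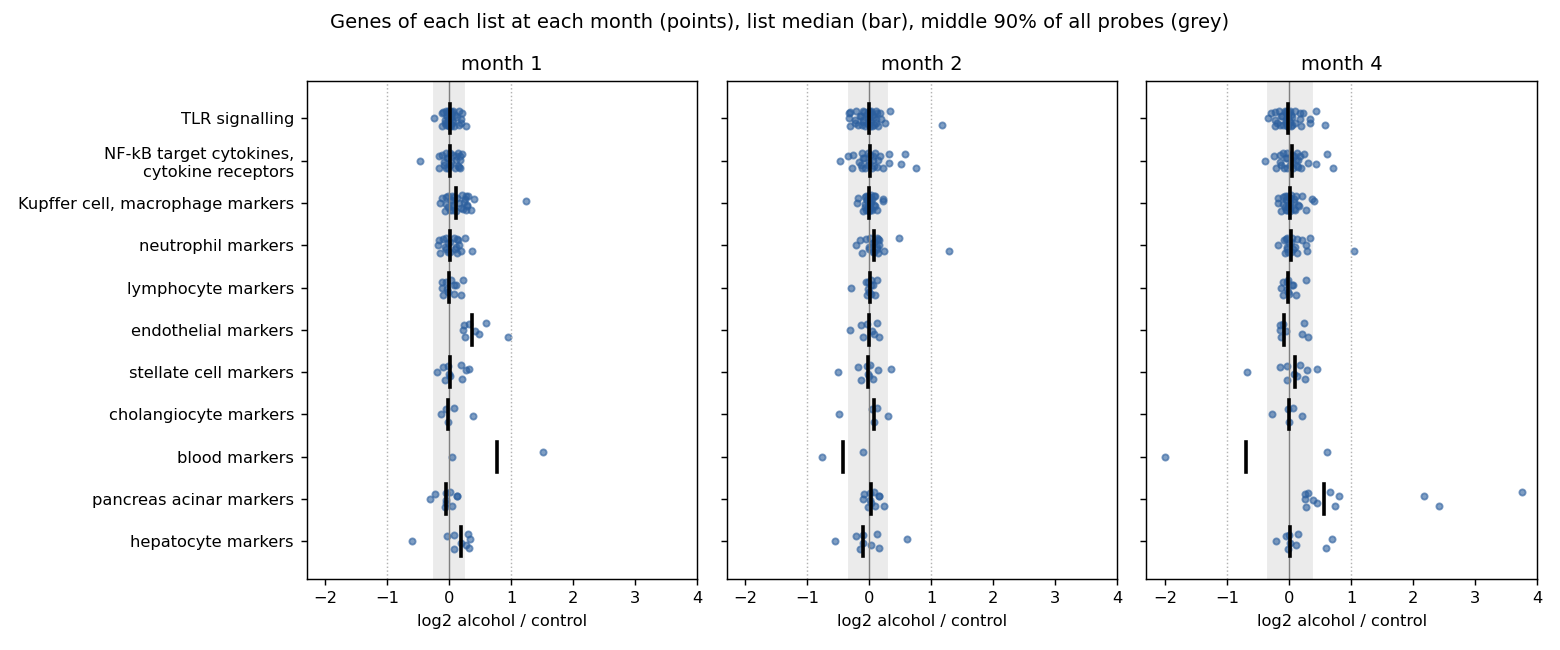
Averaged log2 ratio of alcohol over control (horizontal axis) of every measured gene in 11 lists after 1, 2 and 4 months (panels). Points are genes, black bars list medians, and the grey band holds the middle 90% of all measured probes. The endothelial list is shifted at month 1 and the pancreas acinar list at month 4, while the Toll-like receptor and cytokine lists centre on 0 in each panel.

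The level of each gene in the 6 pools was also followed, as the log2 signal minus the 75th percentile of its channel. Levels are compared between pools only, for 1 probe here and for the sum over a list above. In such a sum the brightest probes weigh most. The sums were taken on this scale alone, so their steps between months may depend on it. Lbp was at 0.47 ± 0.32 in the control pool and 0.71 ± 0.13 in the alcohol pool after 1 month (SD, n = 2 arrays). It was at 1.47 ± 0.01 and 1.93 ± 0.44 after 2 months and at 1.13 ± 0.42 and 1.93 ± 0.03 after 4 months. The alcohol pools of 2 and 4 months therefore lay at the same level, and the control level was lower after 4 months than after 2 months by less than its SD. Marco was higher after 4 months than after 1 month in both diets, going from 1.20 ± 0.08 in control and 1.21 ± 0.01 in alcohol after 1 month to 2.00 ± 0.40 and 2.27 ± 0.14 after 4 months. After 2 months it was 1.05 ± 0.17 in control and 1.65 ± 0.16 in alcohol.

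Tnf went the other way, from -2.20 in both pools after 1 month to -3.55 in control and -3.72 in alcohol after 4 months. Cd68 went from -0.72 and -0.39 after 1 month to -1.53 and -1.46 after 4 months in control and alcohol, and S100a9 from -0.96 and -1.25 to -1.63 and -1.60. Il1b and Cd14 spanned 0.18 and 0.26 log2 units over the 6 pools. The 1-month arrays were on 1 slide and the 2-month and 4-month arrays on another, so age, slide and time on the diet cannot be told apart in these levels. Among the 27898 probes measured everywhere, 45.9% spanned at least 1 log2 unit over the pools, and the median control level moved by -0.30 from 1 to 4 months. With the median of each channel in place of its 75th percentile, that shift was 0.26, and several steps between months changed with it. S100a9 then went from 0.73 in control and 0.44 in alcohol after 1 month to 0.62 and 0.65 after 4 months, so that its alcohol pool was higher at the later time, and Cd68 went from 0.98 and 1.30 to 0.72 and 0.79. The spans of Il1b and Cd14 became 0.67 and 0.81. Lbp went from 2.16 in control and 2.399 in alcohol after 1 month to 3.70 and 4.18 after 2 months and 3.38 and 4.18 after 4 months, a wider step from 1 to 4 months in both diets than above. Marco went from 2.89 and 2.90 to 3.28 and 3.90 and then to 4.25 and 4.52, so that its control level was higher after 2 months than after 1 month on this scale. Tnf was still lower after 4 months, at -1.29 and -1.47 against -0.50 and -0.51 after 1 month.

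**Figure D4:**
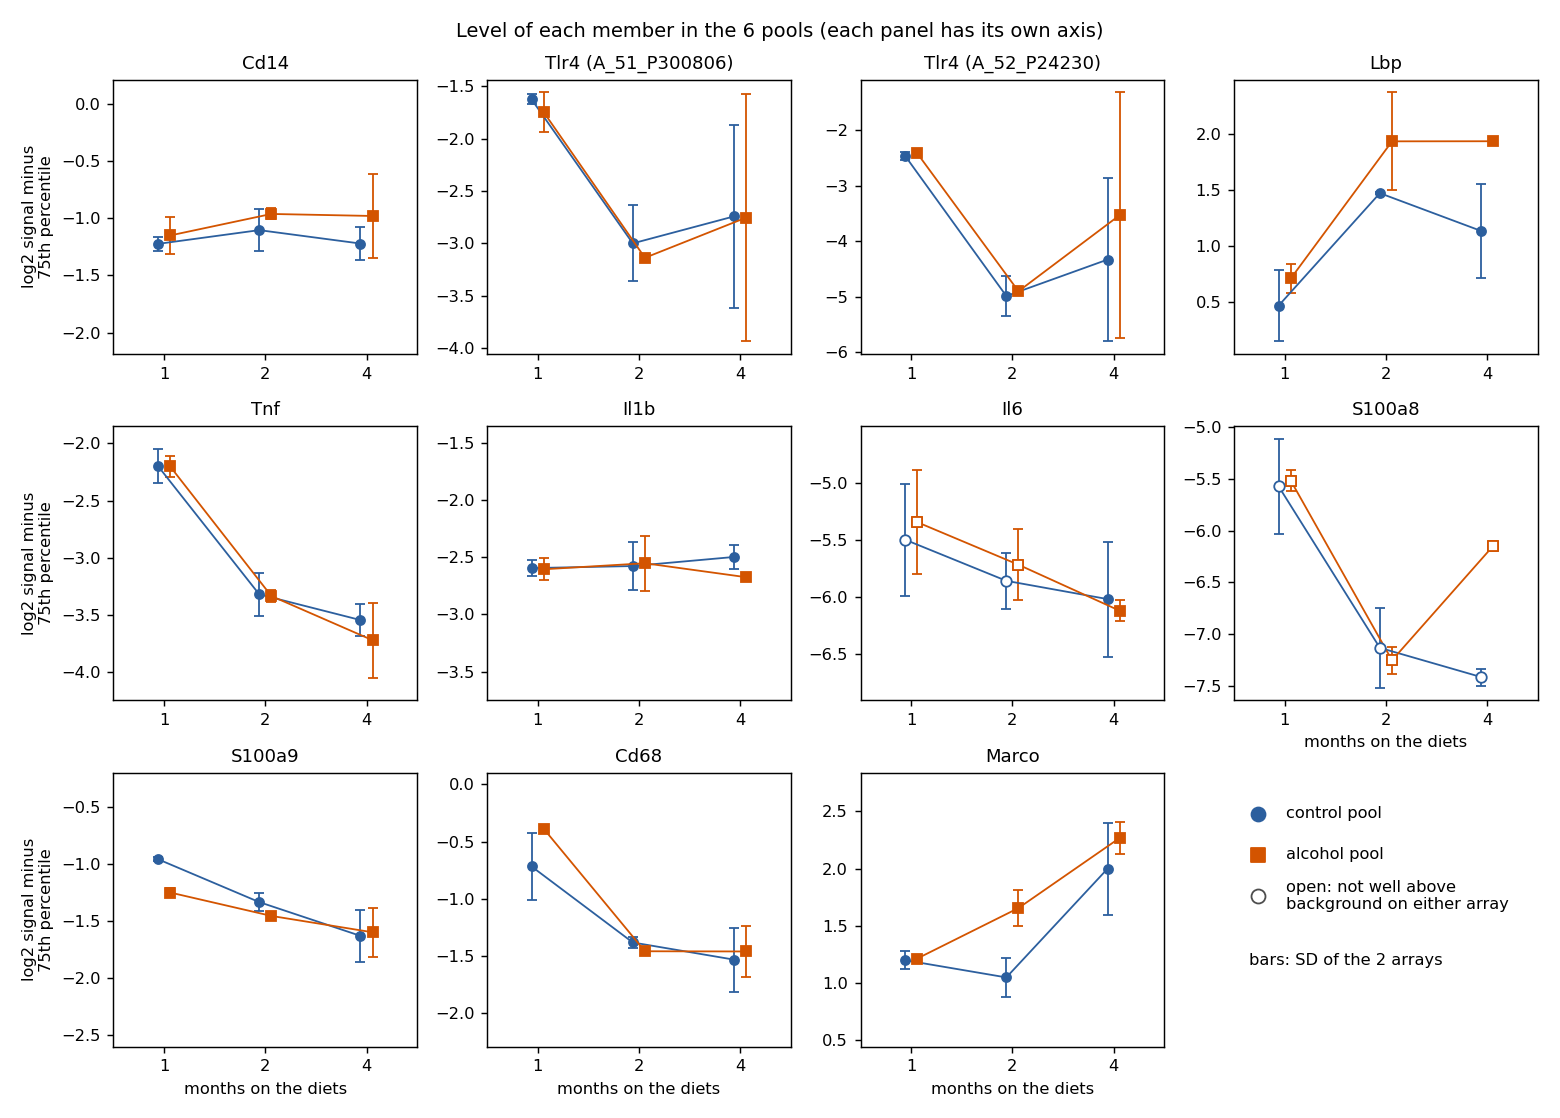
Level of each probe (vertical axis, log2 signal minus the 75th percentile of the channel) in the control pools (blue circles) and alcohol pools (orange squares) after 1, 2 and 4 months on the diets (horizontal axis), with bars for the SD of the 2 arrays. Each panel has its own axis, open symbols were not well above background on either array, and the widest step between the diets is smaller than the widest step between months for Lbp, both Tlr4 probes, Tnf, S100a9, Cd68 and Marco. For Cd14 and Il1b the step between the diets is the wider one after 4 months only, and at no month when the median of the channel is used instead.

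Among the 12809 other probes measured everywhere with a span of 1 log2 unit or more, Abhd2 (Pearson r = 0.9903) and Cyp2c38 (0.9797) were among the 3 nearest to Lbp over the 6 pool levels. Among the 3 nearest to Marco were AF103797 (0.9953) and Fmo5 (0.9781), a flavin monooxygenase. For the brighter Tlr4 probe, Tnf and Cd68 the closest r were 0.9998, 0.9998 and 0.9975. These correlations are descriptions over 6 pools that share slides, arrays and scaling, and nothing of shared function is read from them.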

How the data were processed

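Liver RNA pools of 6 mice were compared on 6 dual-colour Agilent 4x44K mouse arrays. The authors made the deposited spot intensities and log10 ratios of Cy5 over Cy3 with Feature Extraction 9.1.1.1, which detrended the background and normalised the dyes by a linear and lowess step. It also modelled the error of each ratio, deposited beside it. A deposited table of log10 ratios, already turned to alcohol over control, was kept as an alternative.

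Here the log ratios of 43379 gene spots per array (1639 control spots were left out) were turned to alcohol over control on the log2 scale, averaged over the spots of a probe and then over the 2 arrays of a month, which count as 1 replicate. Between 73.34% and 90.33% of gene spots were well above background in a channel. The mean of the 3 months against 0 and the slope on log2 of the month were fitted with limma 3.58.1 (R 4.3.3) over the 37922 probes that at least 1 channel of 1 array detected well above background, with Benjamini-Hochberg adjustment and a threshold of 0.05. The months are the only replicates and their pools hold different mice, so the fit takes the spread between months as the error. Both fits were tested on simulated data. With the smallest change tried, the fit of the mean called most of the changed probes and the fit of the slope called none. That change was larger than the mean or slope of any member tested here. Both fits called nearly all changed probes at the larger sizes. For pool levels the deposited intensities were scaled to the 75th percentile of the channel.

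Gene lists took the probe with the highest mean signal, with current symbols through RefSeq accessions where they matched. All members were named, together with list genes past 2-fold in the average with both arrays on the same side of 0 (up to 5 per list) and 10 fixed partners and markers. The members and lists were chosen with earlier results of these data known. Alternatives were normexp (offset 50) with loess, the deposited table, error-weighted means, median centring, a filter on dim probes, each array or month left out, slide as a block in the mean (added after seeing the data), tests without moderation, a slope on the month itself, other fold thresholds, and channel medians for levels. The number of arrays limits the precision.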

Additional observations from a re-analysis of the deposited data

Results flagged for a closer look

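S100a9, Cd68 and Il1b had both arrays of 1 month on 1 side of 0 and both arrays of another month on the other side. The difference between these months was not tested, since each holds 1 pool per diet. How many of all probes show such a pattern was not counted. S100a9 averaged -0.29 after 1 month and -0.12 after 2 months, both below 0 on each array, and 0.03 after 4 months, above 0 on each array. Its averages after 2 and 4 months were smaller in size than the median SD of the 2 arrays over measured probes, 0.249 and 0.297. The slope of S100a9 over the months was 0.16 per doubling of the time with an adjusted p of 0.77 by limma.

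Cd68 averaged 0.33 after 1 month, -0.07 after 2 months and 0.07 after 4 months, with both arrays of each month on the side of its average. The 2 later values were each smaller than the median spread of the 2 arrays over all probes. Il1b averaged 0.03 after 2 months and -0.18 after 4 months, and its 10 spots on the Cy3 array after 4 months were all below 0. Both averages of Il1b were also smaller in size than that median spread at their month.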

How the results depend on the processing

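No member was called for the mean or the slope in any of the 206 member fits under the alternatives. Over all probes the count called for the mean went from 0 to 9 under normexp with loess and to 6 with dim probes left out, and was 0 when any month or either dye orientation was left out. The count called for the slope went from 0 to 50 under normexp with loess and to 1 without moderation. After 2 months 1 member, Marco, passed a 1.5-fold threshold. After 4 months the members raised went from 0 to 2 (Lbp and the second Tlr4 probe) at 1.5-fold, to 1 (that Tlr4 probe) with error weights, and ranged from 0 to 2 with 1 array alone. The cause was not tested.

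Estimates near 0 changed sign. The mean of Il6 was -0.0024 under normexp with loess and -0.080 in the deposited table. With an array or month left out the mean ranged from -0.19 to 0.26 for Il6, from -0.28 to 0.10 for the first Tlr4 probe, from -0.22 to 0.089 for Tnf, from -0.096 to 0.0081 for Il1b and from -0.0011 to 0.20 for Cd68. With 1 array of each month alone the slope ranged from -0.028 to 0.20 for Cd14, from -0.0065 to 0.12 for the first Tlr4 probe, from -0.27 to 0.098 for Tnf and from -0.23 to 0.067 for Il6. Of the monthly ratios of members, 9 changed sign with 1 array alone, namely those of Tlr4, Tnf, Il1b and Marco, and 5 under other processing. In the deposited table the first Tlr4 probe had 0.063 after 2 months in place of -0.13, and Tnf had 0.11 and 0.052 after 1 and 2 months in place of -0.0061 and -0.010. After 4 months the first Tlr4 probe had 0.014 under normexp with loess and 0.0043 with error weights in place of -0.013. The 3 that moved by more than the SD of the 2 arrays were Tnf after 1 month, Il1b after 2 months (0.088 in the deposited table) and S100a9 after 4 months (0.039 with median centring). Lbp kept its direction in every alternative, with a mean of 0.24 to 0.76 and an adjusted p of 0.23 to 0.96 over the limma and unmoderated fits. The mean of the second Tlr4 probe ranged from 0.048 to 0.57 with an array or month left out. Signal limits Il6, whose estimates come from ratios at background, S100a8 and the second Tlr4 probe. The 3 monthly pairs limit every test, most of all the slope, which leaves 1 residual degree of freedom, so the absence of slope calls does not show that no gene changed steadily. With slide as a block in the mean, an alternative added after seeing the data that leaves 1 residual degree of freedom, 0 probes were called (3630 at an unadjusted p under 0.05), and the adjusted p was 0.49 for Lbp and 0.51 for Marco. The slope leaves no degree of freedom for a slide term.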
